A study of Mus musculus with 3 samples.

Results

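Suppressive and tissue-repair mediators of regulatory T cells (Treg) were followed in 10 genes: Il10, Ebi3, Il12a, Fgl2, Areg, Penk, Nrp1, Izumo1r, Il1rn and Vegfa. These 10 genes were taken by name from the 55536 mouse genes of the GENCODE M21 annotation, with their 40 transcripts of 141862. All 10 were found. The RNA came from primary activated mouse Treg, of male sex and 3 weeks of age, and polyadenylated RNA was sequenced after shearing to a size range of 100 to 300 bases. The labels give 1 group of 3 libraries, numbered as technical replicates of a single biological replicate and called library 1, library 2 and library 3 here. No control, resting or treated sample was analysed here, so no comparison between conditions was possible and every SD is a spread between these libraries. The sources used here do not give the strain, the number of animals or the way the cells were activated.

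Treg are CD4 T cells that carry the transcription factor Foxp3 and hold back other immune cells. They do so partly through secreted proteins, such as the cytokine IL-10 and the paired-chain cytokine IL-35, which is made of the Ebi3 and Il12a products. Treg in tissues also release growth and signalling factors linked to repair, of which amphiregulin, encoded by Areg, and the enkephalin precursor encoded by Penk are known examples. Nrp1 and Izumo1r encode surface proteins by which mouse Treg are often recognised.

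Library depth was even, with 30362256, 28419259 and 31959927 gene reads in libraries 1, 2 and 3. The labelled cell type was checked against its defining markers: all 7 Treg and T cell markers had a TPM of 1 or more in every library, with Foxp3 at 135, 149.6 and 106 TPM and Cd3e at 1024, 931 and 965 TPM. TPM is a relative transcript abundance scaled for transcript length and for the library total. Library 1 stood apart in its erythroid markers, whose 6 members summed to 13911 TPM there, against 1174 and 808 TPM in libraries 2 and 3. Library 3 stood apart by transcript length. Among 3333 genes of 3000 bases or longer, all averaging at least 100 reads, the median log2 difference of library 3 from the other libraries was -0.32, and among 1338 genes under 1000 bases it was 0.27.

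The sequences of Penk and Il1rn show what the reads of these genes stand for. The Penk messenger RNA codes for a precursor of 268 amino acids that is cut into short opioid peptides. Its main transcript, Penk-201 (mm10, chr4:4133531-4138477, minus strand), holds 7 enkephalin units in its coding sequence, 6 of Met-enkephalin and 1 of Leu-enkephalin. Each unit is given with its 5 codons in capitals and the 2 codons on each side in lower case, from the GENCODE M21 transcript. In every unit the codons before it code for a pair of basic residues, the kind of site at which prohormone convertases cut, and in 5 of 7 the codons after it do so as well.
Penk unit 1: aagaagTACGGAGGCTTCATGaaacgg
Penk unit 2: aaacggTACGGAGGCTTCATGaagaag
Penk unit 3: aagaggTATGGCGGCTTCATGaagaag
Penk unit 4: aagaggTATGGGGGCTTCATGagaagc
Penk unit 5: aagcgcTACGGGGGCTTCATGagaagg
Penk unit 6: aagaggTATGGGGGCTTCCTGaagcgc
Penk unit 7: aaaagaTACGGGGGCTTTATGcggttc

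Il1rn codes for the interleukin-1 receptor antagonist in a secreted and an intracellular form, which differ at their start. The coding starts of both forms are shown because the transcript values give each of them a part of the gene. Capitals mark the bases by which the starts differ, 62 bases in Il1rn-201 (mm10, chr2:24345453-24345514, plus strand) and 5 bases in Il1rn-204 (chr2:24336983-24336987), and lower case marks the first 30 of the 472 coding bases they share. The longer start, of the form with 178 amino acids, encodes the first part of the signal peptide of the secreted protein. The shorter one belongs to the intracellular form of 159 amino acids.
Il1rn-201: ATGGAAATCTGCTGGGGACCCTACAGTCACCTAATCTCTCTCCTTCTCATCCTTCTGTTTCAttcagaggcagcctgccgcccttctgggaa
Il1rn-204: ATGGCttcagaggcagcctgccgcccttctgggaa

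The 10 mediators covered about 3 orders of level, and the surface proteins and the opioid precursor led. Izumo1r and Penk together with Nrp1 and Fgl2 made up most of the summed level, with mean shares of 44.0%, 25.2%, 13.0% and 8.55% of it. Il10 and Ebi3 followed at about the same level as each other, then Areg, and Il1rn, Vegfa and Il12a were near or below 1 TPM. The sum over the 10 genes was 839, 835 and 816 TPM in libraries 1, 2 and 3, with a mean of 830.4 ± 12.3 TPM (SD, n = 3). Detection, meaning 1 TPM or more in every library, was reached by 7 of the 10, beside 48.1% of all 22028 protein-coding genes, and the median of the 10 means was 33.1 TPM beside 1.17 TPM for those genes.

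**Figure D1:**
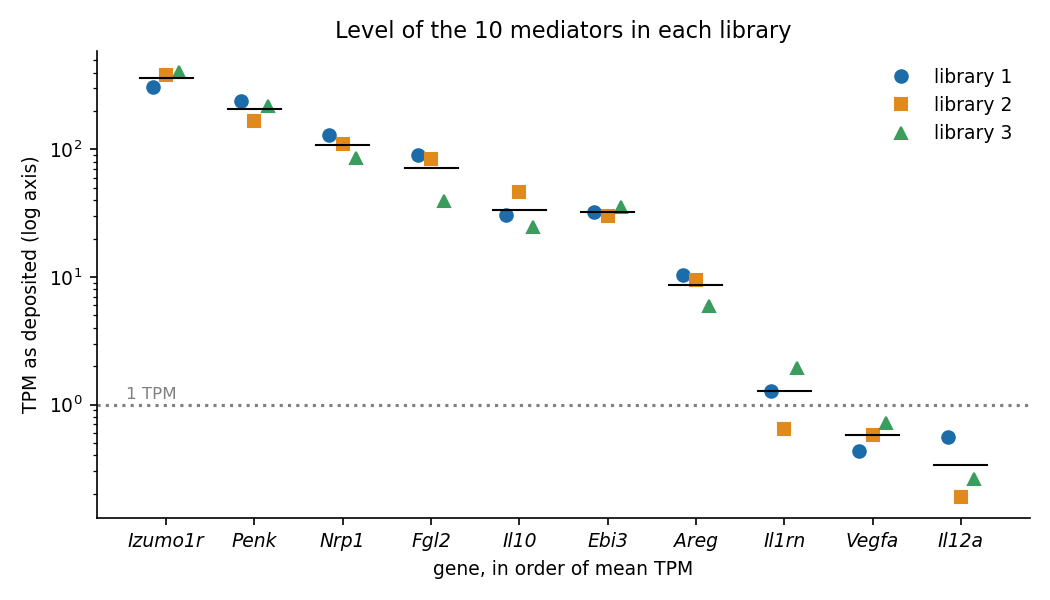
Level of each mediator in each library, in TPM on a log axis, with genes from left to right in order of mean TPM, 1 symbol per library and a black bar at the mean. Izumo1r lies highest at a mean of 365 TPM, and Vegfa and Il12a lie below the dotted line at 1 TPM in all libraries.

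Of the 9 steps between neighbours in this order, 4 exceeded the spread between libraries, by the rule that the log2 ratio of TPM + 1 has 1 sign in all libraries and a mean over 2 SD. These were the steps from Penk to Nrp1, from Fgl2 to Il10, from Ebi3 to Areg and from Areg to Il1rn. The TPM ranges of Fgl2 and Il10 nevertheless overlapped, with Fgl2 at 39.2 TPM in library 3 and Il10 at 46.1 TPM in library 2. Izumo1r lay above Penk in each library, but by a log2 ratio of 0.81 ± 0.42 (SD, n = 3) that stayed under 2 SD. Their TPM ranges did not overlap, so a rule of separate ranges picks this step in place of Fgl2 to Il10. The order of Nrp1 and Fgl2, of Il10 and Ebi3, and of Il1rn, Vegfa and Il12a was not separated from the spread either. Il10 and Ebi3 changed places between libraries, with a log2 ratio of -0.09, 0.60 and -0.49 in libraries 1, 2 and 3.

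Il10, which encodes the cytokine IL-10 that restrains macrophages, dendritic cells and T cells (ENSMUSG00000016529.5, chromosome 1, 131019845 to 131024974, plus strand), had 30.4, 46.1 and 24.7 TPM in libraries 1, 2 and 3. The expected counts, which are the reads that the authors' estimate assigned to the gene, were 728, 1023 and 693. Library 2 was the high one, and the 95% Poisson interval of its count, 961 to 1088 reads, did not reach those of the other libraries. After scaling to effective library size the highest library exceeded the lowest 1.76-fold (95% counting interval 1.60 to 1.94), a larger fold than that of 82.7% of the genes that averaged at least 100 reads. By a chi-square test that set the 3 counts beside the library sizes, adjusted over all 17190 genes tested, Il10 differed between the libraries (chi-square 153, adjusted p = 3.0e-33). The test sees counting error only and compares these libraries. Leaving out library 2 brought the fold to 1.18.

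By that test 8 of the 9 mediators tested differed between libraries, beside 79.8% of all genes tested, so the members' share is near that of genes at large. Vegfa did not pass, and Il12a was not tested, since its mean was under 10 reads. Among the 7 members averaging at least 100 reads the median of the highest to lowest fold was 1.43, beside 1.34 for the 11113 genes of that depth, and 1 of the 7 reached 2-fold, beside 11% of those genes. Libraries 1, 2 and 3 held the highest scaled count of 5, 2 and 3 of the 10 members, beside 34.4%, 36.2% and 29.4% of those 11113 genes. Since whole cell populations were sequenced, fewer cells with a transcript and less of it per cell cannot be told apart.

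**Figure D2:**
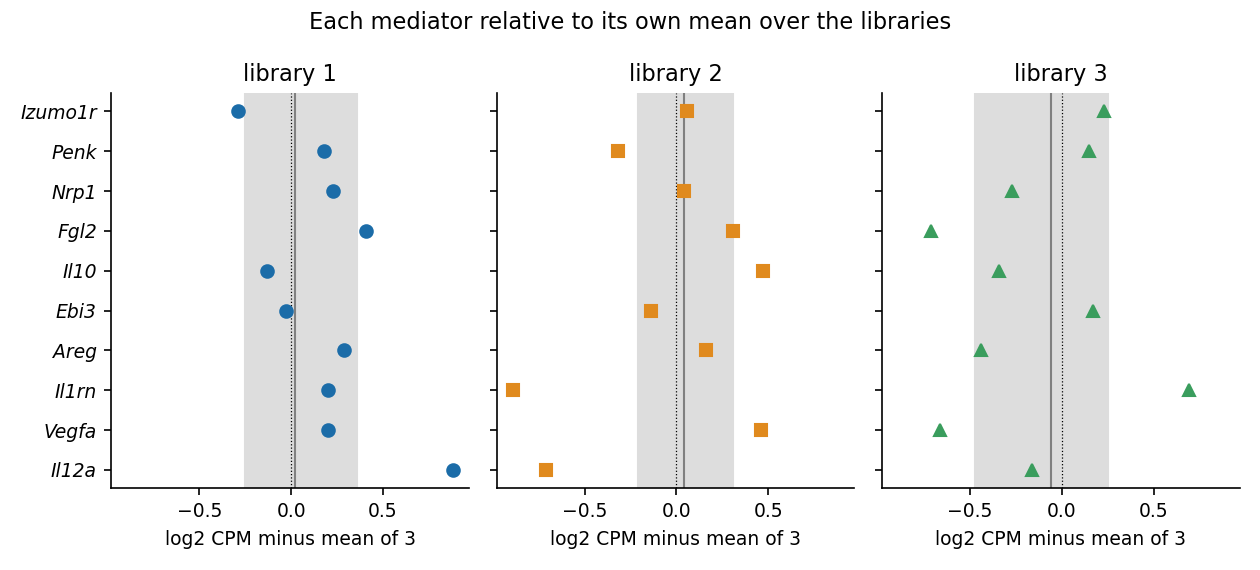
Log2 CPM (read count scaled to effective library size) of each mediator in each library minus its own mean over the 3 libraries, 1 panel per library, with the grey band from the 10th to the 90th percentile of 11113 genes averaging at least 100 reads and a grey line at their median. Fgl2 lies below the band in library 3 at -0.71, and Il10 lies above it in library 2 at 0.47. Other members lie outside it too, among them Penk in library 2 at -0.32 and Il1rn in libraries 2 and 3 at -0.89 and 0.69.

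The genes that carry the IL-10 signal and those known to control Il10 in T cells were all present. Il10ra, the ligand-binding receptor chain, had 73.5, 68.9 and 31.2 TPM, and Il10rb, the shared second chain, had 77.7, 74.1 and 68.3 TPM in libraries 1, 2 and 3. The kinases Jak1 and Tyk2 and the transcription factor Stat3, which act below the receptor, completed this list, with Jak1 highest at 411 ± 45.6 TPM. All 5 were detected and 4 of 5 differed between libraries, the exception being Il10rb. All 7 listed regulators of Il10 were detected as well, and all 7 differed between libraries. Both counts stand beside 79.8% of all genes tested and 89.0% of those averaging at least 100 reads, so neither sets its list apart. Batf, an activation-induced factor, was highest at 255 ± 32.0 TPM, followed by Bhlhe40, a repressor of Il10 in T cells, at 104 ± 62.5 TPM. Prdm1, which encodes Blimp-1, was lowest at 22.4 ± 8.65 TPM.

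The 2 chains of IL-35 were far apart. Ebi3 (ENSMUSG00000003206.7, chromosome 17, 55952640 to 55957022, plus strand) had 32.3, 30 and 35.1 TPM in libraries 1, 2 and 3, from 678, 583 and 863 reads. Il12a, which encodes the p35 chain that IL-35 shares with IL-12 (ENSMUSG00000027776.12, chromosome 3, 68690644 to 68698547, plus strand), had 0.560, 0.190 and 0.260 TPM, from 13, 4 and 7 reads. The ranges did not overlap, and the counts of Il12a left wide 95% Poisson intervals, of 6.92 to 22.2, 1.09 to 10.2 and 2.81 to 14.4 reads. The log2 ratio of Ebi3 to Il12a, each with 1 TPM added, was 4.42, 4.70 and 4.84, with a mean of 4.65 ± 0.22 (SD, n = 3). With 0.1 TPM added it was 6.31, so its size depends on the pseudocount while its sign does not.

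Ebi3 differed little between libraries, by 1.24-fold from the highest to the lowest (95% counting interval 1.12 to 1.38, chi-square 17.8, adjusted p = 2.3e-04), larger than the fold of 33.8% of deeply read genes. The call did not hold without library 3 (adjusted p = 0.27) or in the other deposited gene table (adjusted p = 0.081), where the fold was 1.18 with the same highest and lowest library. An antisense gene, Gm16712, shares 270 of the 1154 exonic bases of Ebi3 and had 2.97, 4.25 and 2.54 TPM. Whether reads were assigned by strand is not given in the sources used here, so part of either gene's reads may belong to the other.

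Of the listed chains that pair with Ebi3 or p35, none was near the level of Ebi3. Il27, whose p28 product joins Ebi3 to form IL-27, had 0.05, 0 and 0.140 TPM in libraries 1, 2 and 3, and the log2 ratio of Ebi3 to it was 4.98 ± 0.02 (SD, n = 3). Il12b, the p40 partner of p35, had 0.0600, 0 and 0.170 TPM. On the receiving side, Il27ra at 183 ± 30.9 TPM and Il6st, the gp130 chain, at 63.3 ± 3.75 TPM were the highest of the 8 genes listed for the IL-12 family, of which 3 were detected. Il12rb2, a chain of the IL-12 and IL-35 receptors, had 5.46, 1.27 and 0.700 TPM, a 7.14-fold difference between library 1 and library 3 after scaling. All 4 genes of this list that could be tested differed between libraries, beside 79.8% of all genes tested.

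**Figure D3:**
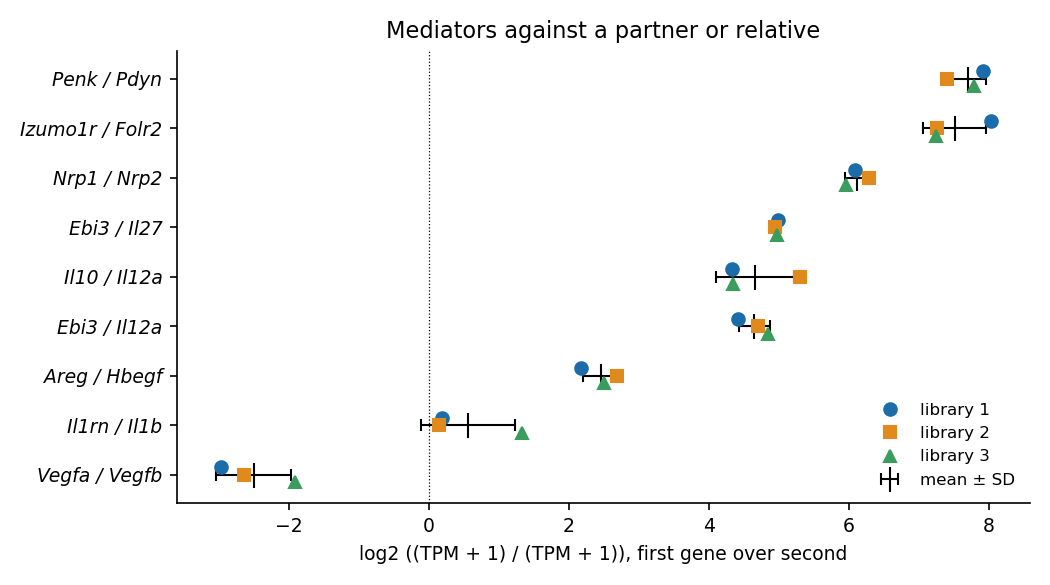
Log2 ratio of TPM + 1 of each mediator to a partner or relative in each library, 1 symbol per library, with the mean and SD in black. Vegfa over Vegfb lies below 0 in all libraries, Il1rn over Il1b spans 0.15 to 1.33, and the other 7 pairs lie above 2 throughout.

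Fgl2, which encodes fibrinogen-like protein 2, a suppressive factor when secreted and a prothrombinase at the cell surface (ENSMUSG00000039899.5, chromosome 5, 21372642 to 21378374, plus strand), had 90.5, 84.2 and 39.2 TPM in libraries 1, 2 and 3. It was carried by 6417, 5543 and 3264 reads. Library 3 was the low one, and libraries 1 and 2 were close to each other. The highest library exceeded the lowest 2.17-fold (95% counting interval 2.08 to 2.26), above the fold of 91.7% of deeply read genes, with a chi-square of 1496 whose p was too small to be held as a number. Without library 3 the fold was 1.07, and in the other deposited table it was 1.35. Fgl2 is a long transcript of 3788 bases, and the 500 genes nearest to it in length had a median log2 difference of -0.31 in library 3, against -1.07 for Fgl2. With the median of those genes removed from each library the fold was 1.77, in a setting chosen after the data were seen.

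Fcgr2b and Fcgr3, the inhibitory and activating Fc receptors that bind Fgl2 protein in mice, had 9.47 ± 1.58 and 14.5 ± 4.71 TPM. Macrophages carry both, and B cells carry Fcgr2b; 4 of 5 B cell markers were detected, with a sum of 42.9, 40.2 and 67.7 TPM in libraries 1, 2 and 3. Macrophage and monocyte markers were detected for 6 of 8 genes and summed to 169, 99.3 and 106 TPM in libraries 1, 2 and 3, led by Lyz2 at 67.6, 25.0 and 49.5 TPM. C1qa, at 47.1, 33.8 and 26.4 TPM, Cd68, Csf1r and Adgre1 had the same library order as Fgl2. Lyz2, Itgam, Cd14 and Ms4a7 had other orders. Fgl2 is expressed by macrophages too, and the part of those cells in its level was not tested. Fgl1, the liver-derived relative and a ligand of the inhibitory receptor Lag3, stayed at 0.0900 ± 0.113 TPM, whereas Lag3 itself had 14.5 ± 2.81 TPM. The gene Ccdc146 overlaps Fgl2 on the opposite strand but shares no exonic base with it.

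Areg encodes amphiregulin, a ligand of the EGF receptor that supports repair of muscle and lung in mice (ENSMUSG00000029378.5, chromosome 5, 91139599 to 91148432, plus strand). It had 10.4, 9.50 and 5.89 TPM in libraries 1, 2 and 3, from 230, 195 and 153 reads. Library 3 was again the low one, although Areg is a short transcript of 1215 bases, and genes nearest to it in length were higher in library 3 by a median log2 difference of 0.11. The highest to lowest fold was 1.66 (95% counting interval 1.35 to 2.05, chi-square 25.7, adjusted p = 5.0e-06). Without library 3 the test did not pass (adjusted p = 0.46, fold 1.09). Of mast cells and basophils, which also make amphiregulin, Mcpt8 was at 0 reads throughout, a count that allows up to 3 per library, and Cpa3 had 0.380, 0.290 and 0.220 TPM. Of the 6 markers listed for them Kit alone was detected, at 6.72, 5.50 and 3.46 TPM in libraries 1, 2 and 3. The list summed to 7.10, 5.86 and 4.25 TPM, most of it from Kit. Kit and Cpa3 had the same library order as Areg. Fcer1a, at 0, 0 and 0.190 TPM, and Ms4a2, at 0, 0.0200 and 0.380 TPM, were instead highest in library 3, from few reads. Prss34 had 1 read, in library 2. The part of these cells in the Areg reads was not tested.

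Areg was the most abundant EGF family ligand among those examined. Of the other 6 ligands Egf alone was detected, at 1.72 ± 0.520 TPM, and Epgn had no read. Hbegf, the heparin-binding ligand, had 1.51, 0.630 and 0.210 TPM in libraries 1, 2 and 3, and the log2 ratio of Areg to Hbegf was 2.46 ± 0.26 (SD, n = 3). Adam17, the protease that frees amphiregulin from the membrane, and its relative Adam10 were present at 49.1 ± 4.17 and 67.4 ± 7.23 TPM. The receptors were low, with Egfr at 1.32, 2.91 and 1.15 TPM and Erbb2 at 0.150, 0.0200 and 0 TPM. In the list of receptors and shedding genes 5 of 7 were detected. All 5 that could be tested differed between libraries, beside 79.8% of all genes tested.

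Penk (ENSMUSG00000045573.9, chromosome 4, 4133531 to 4138819, minus strand) was the second most abundant of the 10, above 96.69% of protein-coding genes. It had 239, 168 and 219.7 TPM in libraries 1, 2 and 3, from 5792, 3795 and 6274 reads. Library 2 was the low one, and the highest to lowest fold was 1.41 (95% counting interval 1.36 to 1.47, chi-square 330.3, adjusted p = 2.5e-71). The test did not pass without library 2 (adjusted p = 0.069, fold 1.04) or in the other deposited table (adjusted p = 0.092, fold 1.08). An opposite-strand gene, A830012C17Rik, shares 233 of the 1634 exonic bases of Penk but had only 63, 37 and 75 reads.

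Of the opioid precursors, Penk alone was detected. Pdyn, the prodynorphin gene, was at 0 reads in all libraries, so the log2 ratio of Penk to it, 7.70 ± 0.26 (SD, n = 3), is set by the added 1 TPM. Pomc had 1.53, 0.730 and 1.39 TPM, and Pnoc had 0.05 ± 0.01 TPM. The neuroendocrine convertases that cut proenkephalin were low as well, with Pcsk1 at 0.297 ± 0.1 TPM and Pcsk2 at 0.00667 ± 0.0115 TPM. Other proteases of the list were present, namely the widely expressed convertase Furin at 105, 75.9 and 33.1 TPM and the lysosomal protease Ctsl at 14.1, 25.8 and 12.6 TPM. Cpe, a carboxypeptidase that trims opioid peptides, had 4.59 ± 2.02 TPM. None of the 4 opioid receptor genes was detected: Oprd1 had no read, which allows up to 3 in each library, and Oprm1 had 0.250, 0.370 and 1.62 TPM.

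Nrp1 encodes neuropilin-1, a co-receptor for semaphorins and VEGF (ENSMUSG00000025810.9, chromosome 8, 128358604 to 128503363, plus strand). It had 129, 111 and 84.9 TPM in libraries 1, 2 and 3, from 8161, 6609 and 6334 reads. Library 1 was the high one and library 3 the low one, and the fold between them was 1.42 (95% counting interval 1.38 to 1.47, chi-square 448, adjusted p = 9.4e-97). Nrp1 is a long gene product too, of 3403 bases on average, and with the median of the 500 genes nearest in length removed, as for Fgl2, the fold was 1.18. The microRNA gene Mir1903 lies within the exonic bases of Nrp1 and was given 64, 46 and 36 reads of its own, so reads there may be split between the genes.

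Of the genes known to act with Nrp1, its ligand on immune cells, Sema4a, was the most abundant at 134, 119 and 99.0 TPM in libraries 1, 2 and 3. The paralog Nrp2 had 0.900, 0.440 and 0.380 TPM, and the log2 ratio of Nrp1 to Nrp2 was 6.11 ± 0.16 (SD, n = 3). Plexin co-receptors were low, with Plxna1 at 2.97 ± 0.812 TPM and Plxna4 at 0.0667 ± 0.0569 TPM. In all 5 of 10 partners were detected, and all 10 differed between libraries, beside 79.8% of all genes tested. Endothelial cells also carry Nrp1, and 1 of their 4 listed markers was detected. This was Pecam1, which leukocytes carry as well, at 87.4, 71.7 and 82.0 TPM, and the list summed to 87.5, 71.8 and 82.4 TPM in libraries 1, 2 and 3. Of the other markers, Cdh5 was at 0.0800, 0.0300 and 0.05 TPM and Tek at 0, 0 and 0.0300 TPM, and the part of endothelial cells in the Nrp1 reads was not tested.

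Izumo1r encodes folate receptor 4, known as Juno on the egg, where it binds the sperm protein Izumo1 (ENSMUSG00000031933.17, chromosome 9, 14885814 to 14903949, minus strand). It was the most abundant of the 10, above 98.39% of protein-coding genes, with 306, 385 and 404 TPM in libraries 1, 2 and 3. The reads were 6870, 8078 and 10816, and the low library here was library 1. The fold was 1.43 (95% counting interval 1.38 to 1.47, chi-square 536, adjusted p = 7.5e-116). In the other deposited table it was 1.09 with library 2 as the highest. Its relatives were scarce, with Folr2 at 0.170, 1.52 and 1.68 TPM and Folr1 at 0.0567 ± 0.0981 TPM, and Izumo1 had 0.230, 0.130 and 0.520 TPM. The log2 ratio of Izumo1r to Folr2 was 7.51 ± 0.45 (SD, n = 3). Slc19a1, the reduced folate carrier, was the 1 member of its 5-gene list that was detected, at 28.7 ± 4.70 TPM.

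Il1rn, the antagonist that blocks the IL-1 receptor (ENSMUSG00000026981.15, chromosome 2, 24336853 to 24351494, plus strand), was near the detection level. It had 1.27, 0.640 and 1.94 TPM in libraries 1, 2 and 3, from 46, 20 and 71 reads. Library 3 was high and library 2 low, a 2.98-fold difference with a wide 95% counting interval of 1.79 to 5.17 (chi-square 20.3, adjusted p = 6.7e-05). Without library 2 the test did not pass (adjusted p = 0.13, fold 1.37). The other deposited table had 8, 3 and 19 reads, a fold of 5.81. Myeloid cells also make Il1rn. The macrophage and monocyte markers summed to 169, 99.3 and 106 TPM in libraries 1, 2 and 3. No neutrophil marker of 8 reached 1 TPM in every library, and these summed to 16.9, 2.57 and 3.34 TPM. In library 1 S100a9 had 6.26, Retnlg 5.13, S100a8 3.26 and Ltf 1.83 TPM, and the other listed neutrophil markers were under 1 TPM there. The part of such cells in the Il1rn reads was not tested.

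Around Il1rn, the decoy receptor had the highest mean level of the IL-1 axis, although Il1rl1 was above it in library 2. Il1r2, which binds IL-1 without signalling, had 136, 107 and 93.0 TPM in libraries 1, 2 and 3, followed by Il1rl1, the IL-33 receptor ST2, at 52.1, 112 and 31.8 TPM. The signalling receptor Il1r1 had 1.80 ± 0.578 TPM. The ligand Il1b had 0.990, 0.480 and 0.170 TPM, so the log2 ratio of Il1rn to Il1b was 0.19, 0.15 and 1.33. Its mean of 0.56 ± 0.67 was the 1 ratio of the 9 pairs that did not exceed the spread. Il33, the ST2 ligand, had 0.00667 ± 0.0115 TPM. Among 8 genes of this axis, 5 were detected, and 5 of 7 tested differed between libraries, beside 79.8% of all genes tested.

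Vegfa, the angiogenic growth factor (ENSMUSG00000023951.17, chromosome 17, 46016993 to 46032369, minus strand), was scarce. It had 18, 20 and 11 reads in libraries 1, 2 and 3, with 95% Poisson intervals of 10.7 to 28.4, 12.2 to 30.9 and 5.49 to 19.7 that overlap. The deposited TPM was 0.430, 0.580 and 0.720, so library 3 was lowest by reads but highest by TPM, while the effective length to which the reads were scaled was 2199.1, 1967.1 and 685.83 bases. No difference between libraries was detectable at this depth (chi-square 4.52, adjusted p = 0.12, fold 2.17 with a 95% counting interval of 0.990 to 5.01). Without library 3 the fold was 1.2, and in the other deposited table, from 3, 11 and 7 reads, it was 3.88. The authors' second estimate, a posterior mean, averaged 1.42 TPM, against 0.577 TPM for the first.

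Vegfb, the relative that acts through Flt1, was above Vegfa in every library, at 10.1, 8.82 and 5.47 TPM in libraries 1, 2 and 3. The log2 ratio of Vegfa to Vegfb was -2.50 ± 0.54 (SD, n = 3). None of the other listed VEGF ligands and receptors was detected, with Kdr at 0.0267 ± 0.0231 TPM, Flt1 at 0.203 ± 0.160 TPM and Vegfd without a read. The hypoxia pathway that controls Vegfa was present: all 6 listed genes were detected and differed between libraries, beside 79.8% of all genes tested. Hif1a, the oxygen-sensitive factor, had 209, 196 and 129.8 TPM, and Egln1, the hydroxylase that marks it for decay, had 49.1, 49.1 and 49.8 TPM.

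**Figure D4:**
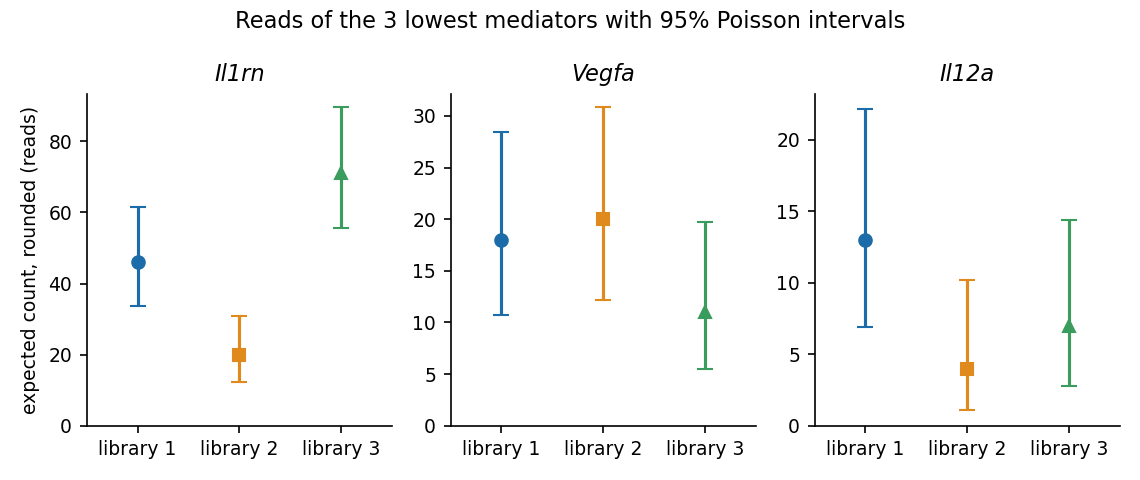
Expected counts, rounded to whole reads, of Il1rn, Vegfa and Il12a in each library, with 95% Poisson intervals and a separate linear axis from 0 for each gene. The intervals of Il1rn in libraries 2 and 3 are apart, at 12.2 to 30.9 and 55.5 to 89.6 reads, and those of Vegfa and of Il12a overlap between all libraries.

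At the transcript level the well-read mediators rested on protein-coding transcripts. Il10, Ebi3, Fgl2 and Areg have 1 annotated transcript each, so nothing is divided. Penk-201 took 83.0%, 83.9% and 83.9% of the Penk TPM in libraries 1, 2 and 3, and the rest fell on Penk-202. All 534 coding bases of Penk-202 are the first 534 of Penk-201, with 3 of its 7 enkephalin units. The Penk-202 annotation ends at position 4134112, inside the Penk-201 coding sequence and before unit 4. Its share therefore does not show a shorter precursor. Izumo1r-201, with 244 codons, took 81.7%, 84.4% and 86.4%, and Izumo1r-202, which shares its first 466 coding bases and has 172 codons, took 9.15%, 7.51% and 6.91%. For comparison, the main transcript of the 8630 protein-coding genes with more than 1 transcript and a mean of 5 TPM or more took a median of 62.2%.

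Nrp1 was the exception among the abundant members. Its main transcript, with 17 exons and 2769 coding bases, took 70.2%, 73.1% and 73.2% of the gene's TPM in libraries 1, 2 and 3. Nrp1-203, annotated as a retained intron (chr8:128358604-128365420, 3 exons), took 22.7%, 19.7% and 21.4%, with 1560, 1085 and 1135 reads. Another retained-intron transcript, Nrp1-204, took 5.04%, 4.38% and 4.68%. Over all the protein-coding genes of 5 TPM or more, retained introns took 11.6% of the summed TPM, and the main transcript was protein-coding in 86.9% of them.

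For the low members the division is loose. Il1rn-201, the secreted form, took 76.4%, 64.1% and 66.0% in libraries 1, 2 and 3, from 35.5, 13.9 and 55.1 reads, and Il1rn-204, the intracellular form, took 9.45%, 17.2% and 9.28%, from 5.40, 4.87 and 9.58 reads. Il1rn-206, a processed transcript without coding bases, took 7.87%, 18.8% and 24.7%, and the retained-intron transcript Il1rn-203 took 6.30% in library 1. By the authors' second estimate the mean share of Il1rn-201 was 40.7% rather than 68.8%. Il1rn-201 and Il1rn-204 end in the same coding bases, so only reads at the differing starts, printed above, and in the untranslated parts separate them. Vegfa-201 took 65.1% and 51.7% in libraries 1 and 2 and 0% in library 3, where 69.4% fell on the retained-intron transcript Vegfa-210 from 9 reads. Vegfa-210 also took 20.9% in library 1, and another retained-intron transcript, Vegfa-209, took 30.6% in library 3. The protein-coding Vegfa-207 took 14.0% and 17.2% in libraries 1 and 2. In library 2 the protein-coding Vegfa-203 and Vegfa-213 took 17.2% and 13.8%. Il12a-202 took 100% in libraries 1 and 2 and 52.0% in library 3, where it had 3.60 of 7 reads. The other 48.0% in library 3 fell on the retained-intron transcript Il12a-204. By the second estimate the mean share of Il12a-202 was 23.5% rather than 84%, and that of Vegfa-201 was 7.74% rather than 38.9%.

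**Figure D5:**
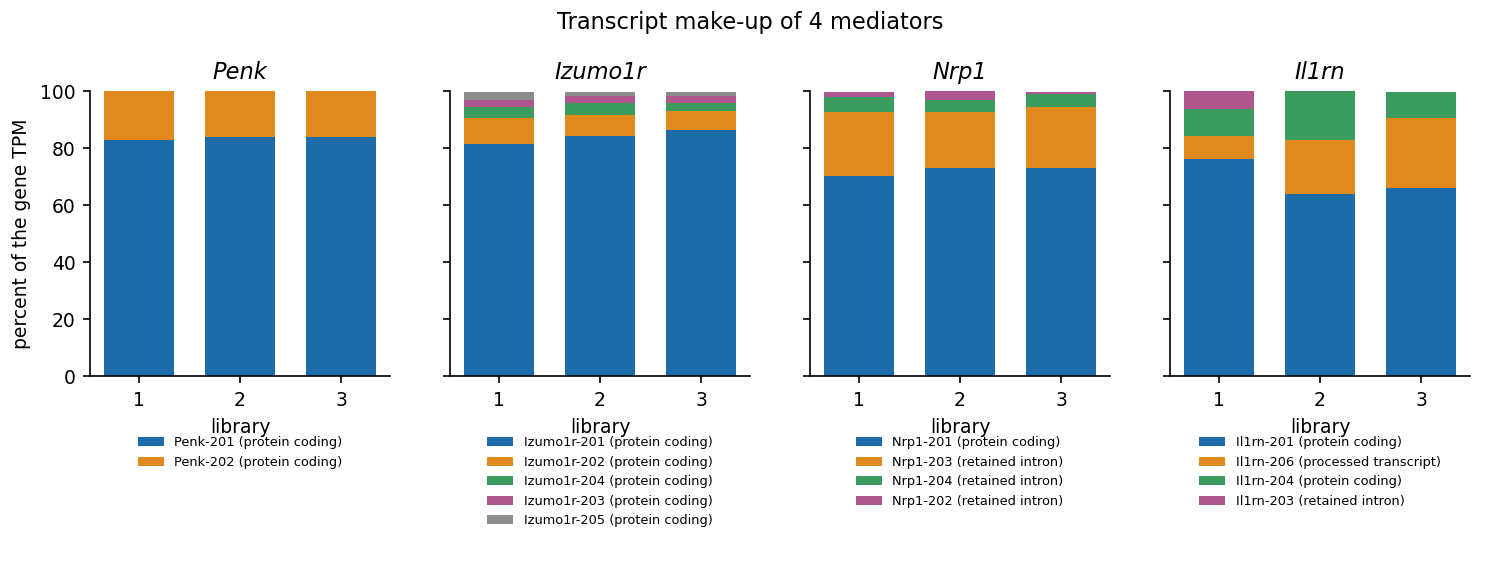
Percent of each gene's TPM on each of its transcripts in libraries 1, 2 and 3 for Penk, Izumo1r, Nrp1 and Il1rn, as stacked bars from 0 to 100, with the annotated type of each transcript in the legend. Penk-201 takes 83.0% to 83.9% of Penk in the 3 libraries, and Il1rn-201 takes 64.1% to 76.4% of Il1rn, from 20 to 71 reads of the gene.

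Beside the mediators, the other genes through which Treg are known to suppress were present at comparable or higher levels. All 7 listed were detected and all 7 differed between libraries, with a median of 107 TPM. Lgals1, which encodes galectin-1, was highest at 492 ± 65.6 TPM, followed by Ctla4, the inhibitory receptor, at 287 ± 56.6 TPM, and the ATP-degrading ectoenzyme Entpd1 was lowest at 39.3 ± 11 TPM. Over all 14 partner lists, 52 of 93 genes were detected, with a median of 2.97 TPM, and 63 of the 69 tested differed between libraries. That is 91.3%, beside 79.8% of all genes tested and 89.0% of the deeply read ones.

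Genes whose 3 library values lay closest to a member's were found by the root mean square difference in log2(TPM + 1) over the 3 libraries, a likeness that 3 values of 1 biological sample fix only loosely. For Il10 they were Polrmt at 30.8, 45.2 and 26.3 TPM and Cyp4f13 at 31.8, 43.8 and 25.8 TPM, with differences of 0.0533 and 0.0656. The nearest to Ebi3 was Timm10 (0.0399), the nearest to Areg was Mnt (0.0208), and the nearest to Nrp1 was Tcf3 (0.0380). For Areg no gene other than Mnt lay within 2 times the smallest difference, whereas 5 genes did so for Il10, 11 for Ebi3 and 10 for Nrp1.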

How the data were processed

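The members and gene lists were chosen with earlier results of these data known. Each library had 2 deposited tables on mm10 with GENCODE M21, for genes and for transcripts, and another gene table on GENCODE M4, per the deposited library notes. The expected counts as deposited are the authors' estimated reads per feature, not normalized. The authors scaled the deposited TPM by length and library total and the deposited FPKM by length and reads. The percent of a gene's TPM on each transcript is also a deposited column, and shares were recomputed here from TPM. The other deposited gene table holds whole-number counts for 22457 genes and was used as an alternative only, because it holds fewer reads. Among the members its counts ranged from 21.9% of the expected counts for Il1rn to 76.0% for Areg. Aligner, counter, kit and strandedness are, as to their names and settings, not given in the sources used here. Depth was 28419259 to 31959927 gene reads, and intervals and limits cover counting error only, since reads without molecular identifiers are not independent molecules.

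The 26345 spike-in and transfer RNA entries were left out. Expected counts were rounded and tested across all genes averaging at least 10 reads by chi-square with 2 degrees of freedom; expectations followed effective library sizes (TMM) from edgeR 4.0.16 in R 4.3.3, with Benjamini-Hochberg adjustment at 0.05. One group gives edgeR's quasi-likelihood test no contrast. DESeq2 1.42.0 gave other size factors. Folds are of TMM-scaled CPM, with exact binomial intervals at 95% converted to ratios. The libraries of each fold were picked as its highest and lowest, and the intervals make no allowance for that choice. A gene with 0 reads allows up to 3. The chi-square procedure was tested on simulated counts that held counting error only, so its behaviour under other variation between libraries was not tested. All 10 members were described, with the highest and lowest of most fixed partner lists, transcripts of 5% or more in a library, and genes nearest in level. Values of other list genes were chosen for print after they were seen. Python 3.11.15, scipy 1.17.1 and pandas 2.3.3 were used. Figf and Il36rn of the lists have no entry under these symbols in the table. The values of 1 listed gene are not reported here.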

Additional observations from a re-analysis of the deposited data

How the results depend on the processing

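The direction of every called pair ratio held under all alternatives run, and the count of mediators detected was 7 to 9 except at 0.1 TPM, where it was 10. Other size factors, total reads, posterior mean counts and no filter on low counts left 8 mediators called, beside 79.7%, 80.1%, 79.1% and 47.8% of all genes tested. A filter of 50 reads left 7 tested, all of them called, beside 87.0%, and the other deposited gene counts left 6, beside 64.9%. Leaving out a library gave 6 to 8 mediators called and 8915 to 11735 of all genes, the lowest being without library 3, or 54.3% to 65.9% of those tested. The other table called 7800 genes of those it tested, against 13712 of 17190, and fewer genes were tested there. Leaving out a library gave a median highest to lowest fold of 1.23 to 1.49 against 1.71 with all, since fewer libraries leave a smaller range. The median main transcript share was 84.1%, 89.5% from expected counts not divided by length, and 83.8% to 91.7% with a library left out. Of the values for single members and pairs, 169 moved by less than the spread under an alternative and 54 by more, most of the 54 being folds and pair ratios. The Izumo1r to Folr2 ratio was 5.52 in the other table and the Vegfa to Vegfb ratio -1.82 by posterior mean TPM. Leaving out libraries for detection and for the order of levels (4 to 5 steps beyond the spread) was added after the data were seen. Depth limits Il12a and Vegfa, whose reads allow no statement on library differences or transcripts. No paired analysis was possible because there is 1 group.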
